A study of Mus musculus with 6 samples.

Results

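The kinetochore and spindle checkpoint genes described here are 39 genes, chosen by name: the inner centromere network, the outer kinetochore and the checkpoint. Their probes were found through the RefSeq accession that the array files give for each probe, and Casc5 is the older name of Knl1. All 39 were on the array, with 51 probes, and all 39 passed the filter on dim probes, among 13716 genes that did. The arrays profiled primary cultures of mouse prostate cells (p53-/- in all 6 cultures). In 3 cultures a lacZ adenovirus left the floxed Rb alleles in place (Rbf/f, called Rb intact below). In 3 others a Cre adenovirus deleted them (Rb∆f/∆f, Rb deleted). RNA was taken 48 h after infection and each culture had its own 1-colour array. The virus used and the Rb status are therefore the same split of the cultures and cannot be told apart. The study speaks of 3 experiments, but not of whether the cultures came from separate animals, so p-values measure only the spread between these samples, which may be technical.

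The kinetochore is the protein assembly that joins a chromosome to the microtubules of the spindle. It is built on nucleosomes that carry the histone variant CENP-A, bound by an inner layer (the constitutive centromere-associated network, CCAN) on which the outer, microtubule-binding layer assembles in mitosis. Kinetochores without microtubules send the checkpoint signal, in which Mad2, Bub3 and BubR1 hold back the Cdc20-bound anaphase-promoting complex. Rb restrains E2F transcription factors, whose targets include genes of S phase and mitosis, and an excess of Mad2, the product of the E2F target Mad2l1, is known as a source of chromosomal instability when the Rb pathway is lost.

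Promoter sequences of members are shown first because E2F sites, the cell cycle homology region (CHR) and the CCAAT box are the elements through which Rb-family and E2F complexes and NF-Y are known to act on mitotic genes. They are the 120 bases before the annotated start, 5′ to 3′ on the gene's strand, from RefSeq on build GRCm38.p6. Capitals mark E2F matches (TTTCCCGC, TTTGGCGC, TTTCGCGC or TTTGCCGC), CHR matches (TTTGAA or TTTAAA) and CCAAT boxes, each searched on both strands. Cenpa (chr5:30666766-30666885, plus strand) holds a pair of CCAAT boxes on the reverse strand and a CHR near the start. In Cenpw (chr10:30200541-30200660, minus strand) a CCAAT box and a reverse CHR overlap by 1 base. Ska3 (chr14:57826164-57826283, minus strand) has a CHR alone. Cenpm (chr15:82244337-82244456, minus strand) has an E2F match, and Cenpl (chr1:161070647-161070766, plus strand) has E2F matches on either side and a CCAAT box between them. Mad2l1 (chr6:66535101-66535220, plus strand) has no match in the stretch shown. These 6 were picked after the matches were seen.
Cenpa: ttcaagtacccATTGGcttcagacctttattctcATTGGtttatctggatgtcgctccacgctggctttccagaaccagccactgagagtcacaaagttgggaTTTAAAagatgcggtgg
Cenpw: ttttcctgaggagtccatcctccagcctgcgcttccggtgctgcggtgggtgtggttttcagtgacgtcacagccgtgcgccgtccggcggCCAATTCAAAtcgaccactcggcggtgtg
Ska3: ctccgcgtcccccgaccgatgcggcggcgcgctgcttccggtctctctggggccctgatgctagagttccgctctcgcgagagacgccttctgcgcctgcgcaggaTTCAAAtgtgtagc
Cenpm: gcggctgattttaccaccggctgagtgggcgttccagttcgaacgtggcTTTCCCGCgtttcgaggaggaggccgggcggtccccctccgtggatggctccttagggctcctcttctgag
Cenpl: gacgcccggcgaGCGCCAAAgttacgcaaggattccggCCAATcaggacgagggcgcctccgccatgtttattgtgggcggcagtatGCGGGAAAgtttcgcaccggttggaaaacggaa
Mad2l1: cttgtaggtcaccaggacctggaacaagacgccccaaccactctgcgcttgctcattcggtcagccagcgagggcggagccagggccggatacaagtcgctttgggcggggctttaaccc

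A promoter window, from 250 bases before to 50 after the start, was matched for 35 of the 39 members. Spc24, Nsl1, Ska1 and Zwilch are named only. An E2F match lay in the window of 5 of the 35 members (14.3%: Mis18a, Cenpb, Cenpl, Cenpm and Dsn1), against 2.61% of 27025 genes with a window. A CHR match lay in 19 (54.3%), against 30.6% of all genes, and a CCAAT box in 22 (62.9%), against 41.1%. Among the 15 matched members that rose, 2 held an E2F match, 8 a CHR and 10 a CCAAT box. Among the 20 that did not pass the test, 3, 11 and 12 did. A match is a description of the letters, not a site, and the Mad2l1 window held none of these letters on either strand.

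The targeted gene was low in every Rb deleted culture. Levels throughout are the log2 processed intensity relative to the 75th percentile of the same array, and a difference is the Rb deleted mean less the Rb intact mean on that log2 scale, ± SE, tested with limma. Rb1 stood at -1.01, -0.996 and -1.03 on the Rb intact arrays and at -2.98, -2.97 and -2.93 on the Rb deleted arrays. It fell by 1.95 ± 0.05, which is 3.86-fold, with a limma Benjamini-Hochberg adjusted p of 8.69e-05 over all genes, and an exact permutation test (two-sided) gave p = 0.1, its lower limit with 3 arrays a group.

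Each array had 58.7% to 63.3% of its probes well above background and none saturated. The arrays lay on 2 slides: slide 1 held the 3 Rb intact arrays and Rb deleted 1, slide 2 held Rb deleted 2 and 3. Only slide 1 therefore compares the groups. Rb intact 1 stood apart from Rb intact 2 and 3 (farther from both than they were from each other) for 31 of the 39 members. It was above both for 23 and below both for 13. The median SD over members was 0.11 in Rb intact and 0.05 in Rb deleted. Of the prostate basal markers, 6 of 10 were tested and 5 fell (Trp63, Itga6, Itgb4, Dst and Col17a1). Their mean level was -1.22 to -1.20 in Rb intact and -1.56 to -1.53 in Rb deleted. With slide as a block none of these 5 passed the test, and when 1 array was left out Trp63 passed in 1 and Itgb4 in 2 of the 6 fits. Of the mesenchymal markers, 12 of 14 were tested and 4 fell (Acta2, Tagln, Cnn1 and Lum), with a mean level of 4.30 to 4.39 in Rb intact and at most 4.04 in Rb deleted. Acta2, Tagln and Cnn1 passed with slide as a block too, and Lum did not. None of the tested luminal (5 of 10), leukocyte and endothelial (6 of 11) or neuroendocrine (4 of 7) markers passed the test. The luminal mean level was -2.12 to -1.96 in Rb intact and -2.18 to -1.89 in Rb deleted, and the leukocyte and endothelial mean -0.29 to 0.10 and -0.18 to -0.01, and the neuroendocrine mean -0.56 to -0.31 and -0.41 to -0.35. Of the defining prostate markers, Hoxb13, Psca and Krt15 were not well above background on any array. Nor was Ptprc among the leukocyte markers, nor Chga and Chgb among the neuroendocrine markers, whereas Itgam, Csf1r and Cd3e of the former and Syp, Eno2 and Ncam1 of the latter were on every array. The part of these markers in the results on kinetochore genes was not tested. In bulk RNA, a larger share of cycling cells and more RNA per cell cannot be told apart.

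Expression of the kinetochore genes was higher in Rb deleted cells for most members, by modest amounts. Of the 39 genes, 17 rose (limma, Benjamini-Hochberg adjusted p under 0.05), none fell and 22 did not pass the test. Over all genes tested, 10.2% rose and 10.4% fell. The 3 Rb deleted arrays lay above the 3 Rb intact arrays for 28 members, against 24.4% of all genes. They lay below them for 1, Cenpb, against 2864 of all 13716 genes. The difference was positive for 36 members, with Cenpb, Cenpc1 and Mad1l1 the exceptions. Its median was 0.25, which is 1.19-fold, against 0.02 over all genes, and it ranged from -0.24 for Cenpb to 0.52 for Cenpk. At an unadjusted p under 0.05, 26 members were higher and 1 lower, against 19% and 16.7% of all genes.

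**Figure D1:**
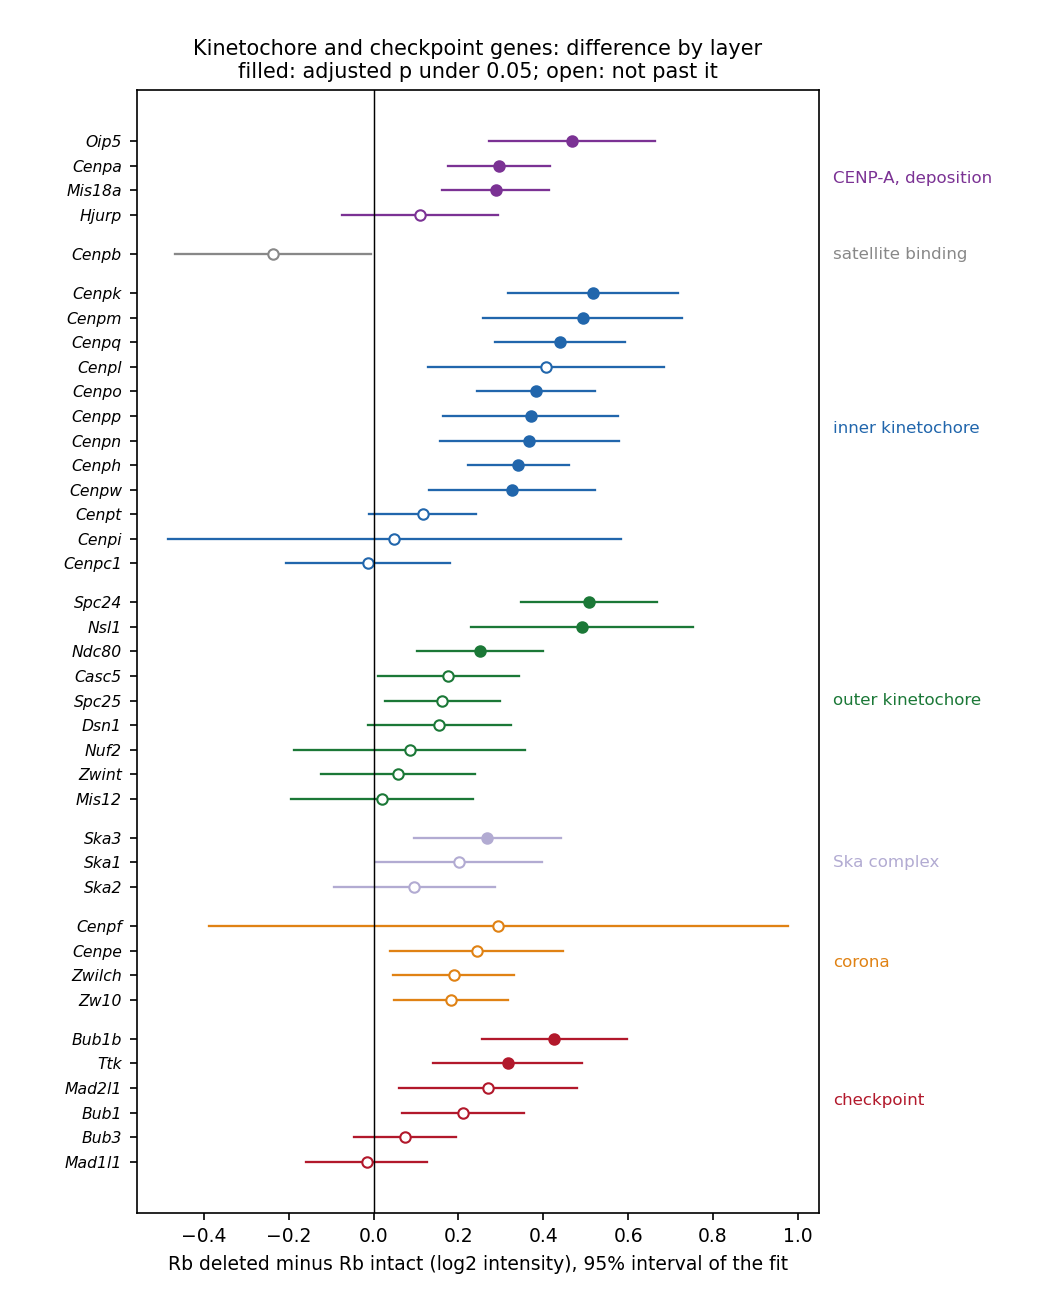
Difference between Rb deleted and Rb intact cells for each of the 39 genes, by layer. The horizontal axis is the log2 difference (Rb deleted minus Rb intact), points are the limma estimates over 3 arrays a group and bars their 95% confidence intervals. Filled points are the 17 genes with an adjusted p under 0.05, all to the right of 0, and Cenpb is the leftmost at -0.24.

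With slide as a block no member passed the test (limma adjusted p of the 17 genes from 0.0536 to 0.318), against 1.44% of all genes that rose in that fit. At an unadjusted p under 0.05, 17 members were higher in it, against 8.94% of all genes. Its differences are those within slide 1, where 1 Rb deleted array met 3 Rb intact arrays. A fit of slide 1 alone, in which the lone Rb deleted array is assumed to vary like the Rb intact arrays, called no member (0.176 to 0.516) and is no second check. It had 11 members higher at an unadjusted p under 0.05, against 5.72% of all genes. The median difference within slide 1 was 0.26, 37 of 39 were positive, and the 17 genes lay between 0.25 and 0.55. The count of rises was 29 without Rb intact 1, where 20.2% of all genes rose. Without Rb intact 2 or 3 it was 11 or 10 (743 or 753 rises over all genes). Without Rb deleted 1 it was 9 (933 over all genes), and without Rb deleted 2 or 3 it was 6 (469 or 481). With arrays centred on their median it was 13, with Cenpw, Ndc80, Ska3 and Ttk no longer past the threshold, and with a background model on median spot signal (normexp) it was 15, without Mis18a, Ndc80 and Ttk and with Mad2l1. Cenph, Cenpk, Cenpo, Cenpq and Spc24 were past the threshold whichever single array was left out.

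**Figure D2:**
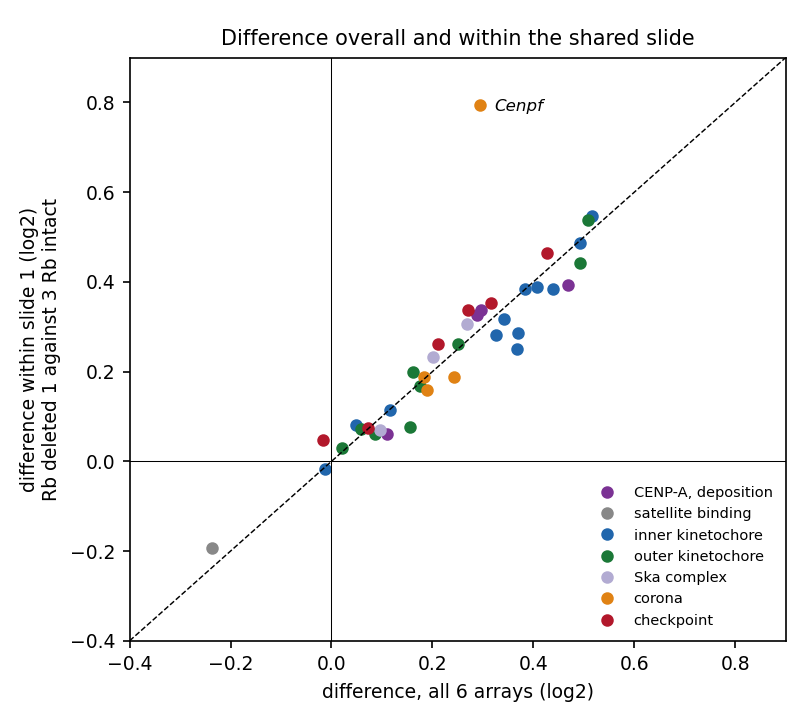
Log2 difference of each of the 39 genes over all 6 arrays (horizontal) and within slide 1 (vertical, Rb deleted 1 against the 3 Rb intact arrays), coloured by layer, with the line of equality dashed. Most points lie near the line. Cenpf reads 0.29 over all arrays and 0.80 within slide 1.

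CENP-A and the proteins that place it at centromeres were higher in Rb deleted cells for 3 of 4 genes, beside 10.2% of all genes that rose. Cenpa, the histone H3 variant that marks the centromere, read 1.83, 1.84 and 1.82 in Rb intact and 2.17, 2.11 and 2.10 in Rb deleted. All Rb deleted arrays were above all Rb intact arrays, and the groups were tight. Cenpa rose by 0.30 ± 0.05, or 1.23-fold, with a limma adjusted p of 0.0101. Oip5 encodes Mis18β, a subunit of the Mis18 complex that licenses centromeres for new CENP-A. Its levels were -0.85, -1.03 and -1.09 in Rb intact against -0.60, -0.51 and -0.46 in Rb deleted, again without overlap. It rose 1.38-fold, by 0.47 ± 0.08 (limma adjusted p = 0.0112). Its partner Mis18a went from 1.04, 0.98 and 1.01 to 1.33, 1.26 and 1.29. That is a rise of 0.29 ± 0.05 (limma adjusted p = 0.0129). A second Mis18a probe differed by 0.22 ± 0.08 and did not pass the test (limma adjusted p = 0.103 over probes). Hjurp, the chaperone that carries CENP-A to the centromere, overlapped between groups, at -1.73, -1.54 and -1.56 against -1.55, -1.54 and -1.41. Its difference was 0.11 ± 0.08 (limma adjusted p = 0.346), and its other probes gave 0.13 and 0.03.

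Of these 3 rises, Cenpa lost its call without Rb deleted 2 (limma adjusted p = 0.0541), Oip5 without Rb deleted 2 or 3 (0.0556 and 0.0563) and Mis18a without any array other than Rb intact 1 (0.051 to 0.0652). Within slide 1 the 3 differences lay between 0.33 and 0.39.

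Cenpb, which binds a short box in satellite DNA of the centromere, was the member furthest in the other direction. It read 3.51, 3.18 and 3.25 in Rb intact and 3.12, 3.06 and 3.05 in Rb deleted. The groups did not overlap, but Rb intact 1 was well above the other two. The difference of -0.24 ± 0.10 did not pass the test (limma adjusted p = 0.133), and it was -0.14 without Rb intact 1 and -0.30 ± 0.14 on a second probe.

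In the inner kinetochore, the layer with the most genes, 8 of the 12 CCAN genes rose. Over all genes 10.2% rose. The median difference over the 12 was 0.37, against 0.02 over all genes. For 10 of the 12 every Rb deleted array was above every Rb intact array, against 24.4% of all genes. The CCAN is made of the CENP-C protein and of sub-complexes called after the CENP letters of their subunits. In the CENP-HIKM group, Cenpk gave the largest rise of all 39 genes. It read 0.22, 0.47 and 0.47 in Rb intact and 0.93, 0.87 and 0.90 in Rb deleted. Every Rb deleted array was above every Rb intact array, of which Rb intact 1 was the lowest. Cenpk rose by 0.52 ± 0.08, or 1.43-fold (limma adjusted p = 0.00863), and its second probe differed by 0.58. Cenph went from 0.95, 0.91 and 0.92 to 1.24, 1.30 and 1.26, with a spread within each group far below the gap between them. It rose by 0.34 ± 0.05 (limma adjusted p = 0.00602). Cenpm went from -2.58, -2.27 and -2.25 to -1.88, -1.86 and -1.88. The Rb deleted arrays were nearly identical while Rb intact 1 was low. Cenpm rose by 0.49 ± 0.10 (limma adjusted p = 0.0174). Cenpi read 0.75, 0.00 and -0.10 against 0.30, 0.25 and 0.25. Here Rb intact 1 was above every other array, the groups overlapped and the difference was 0.05 ± 0.22 (limma adjusted p = 0.893). Without Rb intact 1 it was 0.32, past the threshold at a limma adjusted p of 0.00692.

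All 3 members of the CENP-OPQ group, which links the CCAN to the outer kinetochore and to Polo-like kinase, rose. Cenpq read 0.03, 0.02 and -0.10 in Rb intact and 0.37, 0.41 and 0.48 in Rb deleted, a clear gap between tight groups. It rose by 0.44 ± 0.06, or 1.36-fold (limma adjusted p = 0.00606). A second probe gave 0.25 ± 0.15 and did not pass the test. Cenpo went from 0.30, 0.40 and 0.38 to 0.74, 0.79 and 0.69. It rose by 0.38 ± 0.06 (limma adjusted p = 0.00699), and its second probe differed by 0.62 ± 0.17. That second probe of Cenpo did not pass the test (limma adjusted p = 0.0563 over probes). Cenpp read -0.52, -0.76 and -0.74 against -0.39, -0.26 and -0.26, with Rb intact 1 and Rb deleted 1 the closest arrays. It rose by 0.37 ± 0.09, or 1.29-fold (limma adjusted p = 0.0286).

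Cenpl and Cenpn form the pair that reads the CENP-A nucleosome with CENP-C. Cenpn went from -1.30, -1.29 and -1.49 to -1.11, -0.98 and -0.88, without overlap. It rose by 0.37 ± 0.09 (limma adjusted p = 0.0322). Cenpl differed by more, 0.41 ± 0.11, but lay just beyond the threshold (limma adjusted p = 0.0531), and Rb intact 1 at -0.95 was below Rb intact 2 and 3 at -0.50 and -0.65. Its Rb deleted arrays read -0.31, -0.26 and -0.30, all above Rb intact. Cenpt and Cenpw encode histone-fold proteins that bind each other and recruit the outer layer. Cenpw read 1.61, 1.37 and 1.38 in Rb intact and 1.73, 1.83 and 1.77 in Rb deleted, with Rb intact 1 the array nearest to the other group. It rose by 0.33 ± 0.08 (limma adjusted p = 0.0362), whereas Cenpt differed by 0.12 ± 0.05 (limma adjusted p = 0.168) without overlap between groups. Cenpc1, the CENP-C scaffold gene, overlapped entirely and differed by -0.01 ± 0.08, with a 95% confidence interval of -0.21 to 0.18.

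The CCAN count depended on single arrays. It was 4 without Rb deleted 2 or 3 (469 or 481 rises over all genes). It was 5 without Rb deleted 1 or Rb intact 3 (933 or 753), and 10 without Rb intact 1, where 20.2% of all genes rose. Cenpm lost its call without any 1 Rb deleted array (limma adjusted p 0.0602 to 0.0743), Cenpn without Rb intact 2 or 3 or Rb deleted 2 or 3 (0.0623 to 0.118), and Cenpp and Cenpw whenever an array other than Rb intact 1 was left out (0.0552 to 0.136). Cenpl passed without Rb intact 1 (limma adjusted p = 0.0158, difference 0.28) and without Rb intact 2 (0.0376, difference 0.51). Within slide 1 the median difference of the 12 genes was 0.30.

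**Figure D3:**
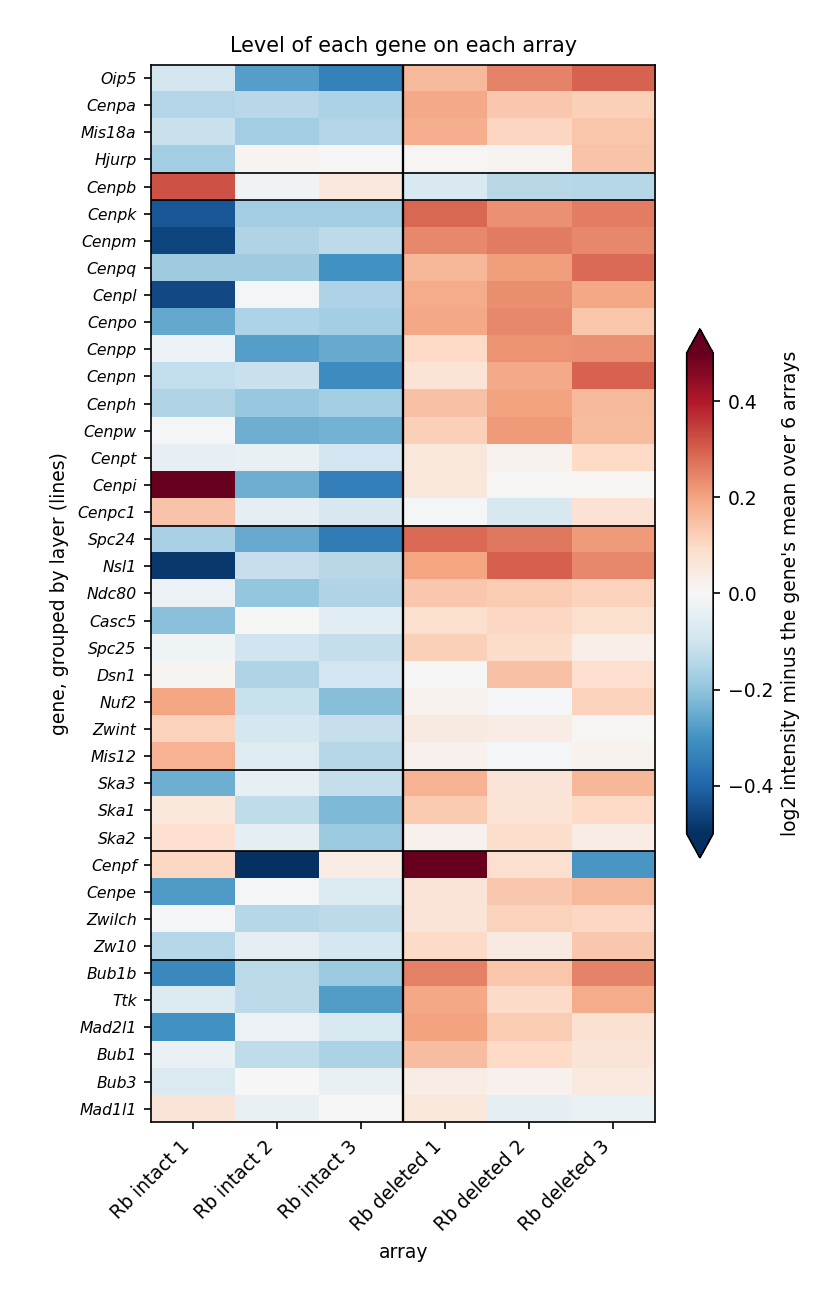
Level of each of the 39 genes on each of the 6 arrays, as log2 intensity minus the gene's mean over the arrays, with red above and blue below that mean. Rows are grouped by layer. The 3 Rb deleted columns are red for most rows, and Rb intact 1 differs from Rb intact 2 and 3 in rows such as Cenpi and Cenpb.

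In the outer kinetochore, 3 of 9 genes rose, beside 10.2% of all genes. All 9 differences were positive, with a median of 0.16, against 0.02 over all genes. The Ndc80 complex, the main microtubule-binding unit, has the subunits Ndc80, Nuf2, Spc24 and Spc25. Spc24 read -0.37, -0.46 and -0.56 in Rb intact and 0.08, 0.05 and 0.01 in Rb deleted. The gap between the groups was wider than the spread of either. Spc24 rose by 0.51 ± 0.07, or 1.42-fold, and had the smallest limma adjusted p of all members, 0.00421. Ndc80 went from -0.23, -0.40 and -0.36 to -0.07, -0.08 and -0.09. It rose by 0.25 ± 0.06 (limma adjusted p = 0.0345). Spc25 read 3.71, 3.63 and 3.61 against 3.85, 3.82 and 3.77. Its groups did not overlap, but the difference of 0.16 ± 0.06 did not pass the test (limma adjusted p = 0.092). Nuf2 overlapped, at 0.52, 0.21 and 0.11 against 0.34, 0.32 and 0.44, with a difference of 0.09 ± 0.11.

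The Mis12 complex joins the CCAN to Ndc80. Of its 3 members here, Nsl1 rose and Mis12 and Dsn1 did not pass the test. Nsl1 read 0.59, 0.96 and 0.93 in Rb intact and 1.27, 1.37 and 1.31 in Rb deleted, with Rb intact 1 the low array. It rose by 0.49 ± 0.11, or 1.41-fold (limma adjusted p = 0.0249), and its second probe differed by 0.60 ± 0.10. Mis12 itself differed by 0.02 ± 0.09 (95% confidence interval -0.19 to 0.23) and Dsn1 by 0.15 ± 0.07. Casc5, the scaffold that docks the checkpoint kinase complexes, differed by 0.18 ± 0.07 without overlap (limma adjusted p = 0.122), and its partner Zwint by 0.06 ± 0.08 with overlap.

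Ndc80 lost its call without any array other than Rb intact 1 (limma adjusted p 0.1 to 0.126), and Nsl1 without any 1 Rb deleted array (0.0682 to 0.1). Without Rb intact 1 the count of rises in this layer was 7, where 20.2% of all genes rose. Nuf2, Spc25, Dsn1 and Zwint were added (limma adjusted p 0.0433, 0.021, 0.0437 and 0.0404). Without any 1 Rb deleted array the count was 1 (469 to 933 rises over all genes), and the layer's median within slide 1 was 0.17.

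The Ska complex tracks microtubule ends beside Ndc80. Ska3 rose, from -0.66, -0.46 and -0.54 to -0.25, -0.36 and -0.25. The groups were separate, with Rb deleted 2 and Rb intact 2 the closest arrays across them. The rise was 0.27 ± 0.07, or 1.20-fold (limma adjusted p = 0.0454), and it was past the threshold in the fit without Rb intact 1 (0.0309) and in none of the 5 others (0.0574 to 0.157). With every passing probe tested on its own, Ska3 did not pass the test (limma adjusted p = 0.0586 over probes). Ska1 differed by 0.20 ± 0.08 (limma adjusted p = 0.132) without overlap and passed the test without Rb intact 1 (0.0105). Ska2 differed by 0.10 ± 0.08 (limma adjusted p = 0.422), with overlap.

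No gene of the corona, the outermost layer of unattached kinetochores, passed the test, and all 4 differences were positive. Zw10 and Zwilch belong to the RZZ complex that brings dynein and Mad1 to the kinetochore. Zw10 read 1.16, 1.25 and 1.21 against 1.40, 1.34 and 1.43, and Zwilch 1.85, 1.71 and 1.73 against 1.92, 1.97 and 1.96. Both sets were without overlap. Their differences of 0.18 ± 0.06 and 0.19 ± 0.06 had limma adjusted p of 0.0644 and 0.0695. Cenpe, a kinesin that moves chromosomes to the spindle equator, read 2.50, 2.78 and 2.71 against 2.85, 2.92 and 2.95. It differed by 0.24 ± 0.08 (limma adjusted p = 0.0912), with Rb intact 1 the lowest array. These 3 genes were past the threshold without Rb intact 1 (limma adjusted p 0.0413, 0.00863 and 0.0491). Cenpf read -4.97, -5.66 and -5.04 against -4.43, -4.99 and -5.36. This dim probe was well above background on all arrays, but its groups overlapped, and its 95% confidence interval ran from -0.39 to 0.98.

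Among the checkpoint genes, Bub1b and Ttk rose, and Bub1, Bub3, Mad1l1 and Mad2l1 did not pass the test. Bub1b encodes BubR1, part of the inhibitor of the anaphase-promoting complex. It read 0.02, 0.21 and 0.16 in Rb intact and 0.59, 0.48 and 0.59 in Rb deleted. The lowest Rb deleted array was well above the highest Rb intact array. Bub1b rose by 0.43 ± 0.07, or 1.34-fold (limma adjusted p = 0.00973), and 0.46 within slide 1. Ttk, the Mps1 kinase that starts the signal, went from -1.98, -2.04 and -2.19 to -1.72, -1.82 and -1.73. It rose by 0.32 ± 0.07 (limma adjusted p = 0.0282). The kinase gene Bub1 read 0.46, 0.36 and 0.33 against 0.64, 0.59 and 0.55. No array of one group reached the other, and the difference of 0.21 ± 0.06 lay just beyond the threshold (limma adjusted p = 0.0522). Bub3 differed by 0.07 ± 0.05 (limma adjusted p = 0.337). Mad1l1, which holds Mad2 at the kinetochore, read 1.81, 1.70 and 1.74 against 1.80, 1.69 and 1.71, with full overlap. Its difference was -0.02 ± 0.06, with a 95% confidence interval of -0.16 to 0.12.

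On its brightest probe Mad2l1 was higher on every Rb deleted array, by an amount that did not pass the test. That probe, A_55_P2133255, read 2.53, 2.80 and 2.76 in Rb intact and 3.03, 2.96 and 2.91 in Rb deleted. The groups did not overlap, with Rb deleted 3 and Rb intact 2 the closest arrays across them. The difference was 0.27 ± 0.09, or 1.21-fold, with a 95% confidence interval of 0.06 to 0.48 and a limma adjusted p of 0.075. An exact permutation test (two-sided) gave p = 0.1, the lowest value this design can reach. The 2 other Mad2l1 probes differed by 0.19 ± 0.12 and 0.11 ± 0.06, in the same direction and not past the threshold. Without Rb intact 1, its lowest array, the difference was smaller, 0.19, and past the threshold (limma adjusted p = 0.0399). Within slide 1 it was 0.34 (limma adjusted p = 0.443). With the normexp background it was 0.33, past the threshold (limma adjusted p = 0.0334).

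Of the checkpoint calls, Bub1b was lost without Rb deleted 3 (limma adjusted p = 0.0524) and Ttk without any array other than Rb intact 1 (0.0703 to 0.113). Bub1 passed without Rb intact 1 (limma adjusted p = 0.0114), and 4 of the 6 genes rose then, where 20.2% of all genes rose. Without Rb deleted 3 none of the 6 rose (481 rises over all genes).

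Set side by side by layer, 11 of the 16 genes of CENP-A deposition and the CCAN rose, with a median of 0.35, and 6 of the 22 genes of the outer kinetochore, Ska complex, corona and checkpoint, with a median of 0.20. Cenpb, at -0.24, is in neither count. Over all genes 10.2% rose, with a median of 0.02. The counts were 13 of 16 and 16 of 22 without Rb intact 1, where 20.2% of all genes rose. With slide as a block they were 0 of both, against 1.44% of all genes. At a limma unadjusted p under 0.05, 8 of 16 and 9 of 22 were higher in that fit, against 8.94% of all genes. These are descriptions of lists, and no test was made between layers. Levels per array showed where the layers separated. The median deviation from the gene means lay between -0.17 and -0.14 on the Rb intact arrays for the CCAN and between 0.13 and 0.21 on the Rb deleted arrays. For the outer kinetochore Rb intact 1 was at -0.02, Rb intact 2 and 3 at -0.11 and -0.14, and the Rb deleted arrays at 0.08 to 0.11. In the Ska complex Rb intact 1 stood at 0.05, close to Rb deleted 2 at 0.07. The checkpoint ran from -0.12 to -0.07 and from 0.07 to 0.17, with Rb deleted 1 the highest.

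**Figure D4:**
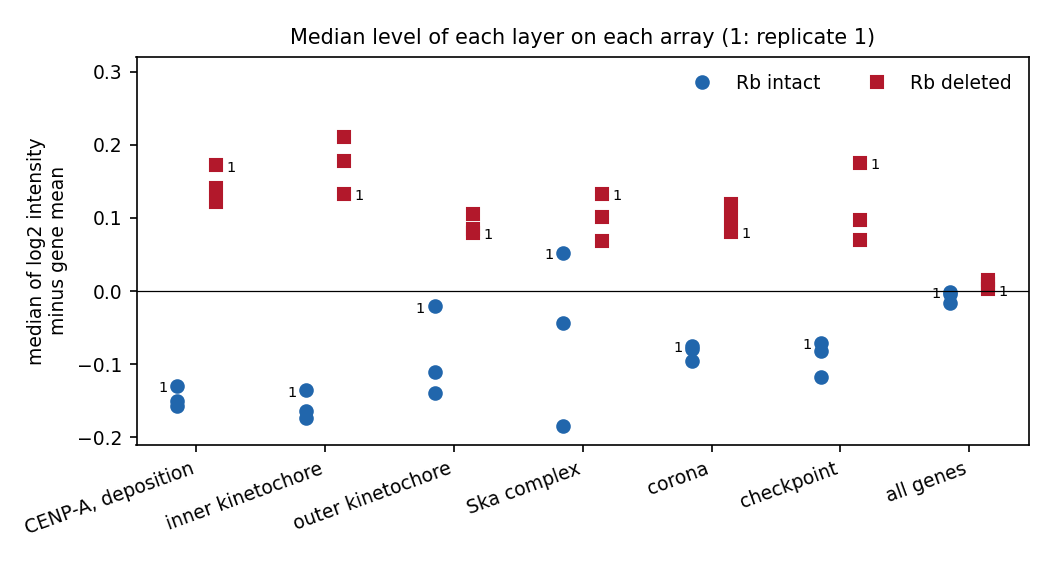
Median over the genes of each layer of log2 intensity minus the gene's mean, 1 point per array (circles Rb intact, squares Rb deleted, replicate 1 of each group marked 1), with all 13716 genes at the right. The groups separate in each layer plotted, least in the Ska complex, whose Rb intact 1 point is at 0.05. For all genes every point is close to 0.

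Further genes of the same pathway, 26 in number, were fitted beside the members, and 11 rose, none fell, with a median difference of 0.23. Over all genes 10.2% rose and 10.4% fell. Cdca8, which encodes borealin of the chromosomal passenger complex, rose by 0.46 ± 0.05 (limma adjusted p = 0.00211). The shugoshins Sgo1 and Sgo2a, which protect centromeric cohesion, rose by 0.37 ± 0.05 and 0.38 ± 0.06. Cenpu, the partner of CENP-O, CENP-P and CENP-Q, rose by 0.38 ± 0.06 (limma adjusted p = 0.00896), and Itgb3bp, which encodes their further partner CENP-R, differed by 0.43 ± 0.15 (limma adjusted p = 0.0911), with Rb intact 1 the lowest array. Of these 5 genes of 1 sub-complex 4 were past the threshold. Kntc1, the large RZZ subunit, rose by 0.42 ± 0.08, and its difference from Zw10 and Zwilch, given above, was not tested. Cenps, Trip13, Spag5, Haspin, Kif2c and Espl1 rose too. Cdc20, the target of the checkpoint, differed by 0.26 ± 0.08 (limma adjusted p = 0.0656). With slide as a block 1 of the 26 was past the threshold, against 1.44% of all genes that rose in that fit. At an unadjusted p under 0.05, 10 were higher in it, against 8.94% of all genes. Within slide 1 the median difference of the 26 was 0.25. The count of rises was 19 without Rb intact 1, where 20.2% of all genes rose. It was between 3 and 5 without any other single array (469 to 933 rises over all genes). With arrays centred on their median it was 7, and with the normexp background 6.

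Of the cell cycle genes outside the kinetochore, some rose and none fell. Of 17 tested S phase genes 10 rose, with a median of 0.27, against 10.2% and 0.02 over all genes. Cdt1 and Cdc45, which license and start replication origins, rose by 0.47 ± 0.05 and 0.52 ± 0.06. Mcm5 rose by 0.39 ± 0.06 and Gins1 by 0.61 ± 0.10. Of 17 G2/M genes 5 rose, with a median of 0.29, beside the same 10.2% of all genes. Aurka rose by 0.43 ± 0.05, Nusap1 by 0.32 ± 0.06, Mybl2 by 0.55 ± 0.10 and Top2a by 0.29 ± 0.06. The proliferation marker Mki67 differed by -0.13 ± 0.07 (limma adjusted p = 0.224). Without Rb intact 1, where 20.2% of all genes rose, the G2/M count was 12. It was 1 to 3 without any other single array (469 to 933 rises over all genes). The S phase count was 15 without Rb intact 1 (20.2% of all genes) and 9 without Rb intact 2 (743 rises over all genes). It was 6 without Rb intact 3 (753) and 5 without any 1 Rb deleted array (469 to 933). When slide was a block, 1 gene of each list was past the threshold, against 1.44% of all genes that rose in that fit. The members' median was 0.25, beside these 0.27 and 0.29. Without Rb intact 1 the medians were 0.28 for the members, 0.33 for S phase and 0.18 for G2/M. The part of the cell cycle in the members' differences was not tested.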

How the data were processed

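Intensity values came from the deposited scanner files of 6 arrays of 1 colour. The authors extracted them with Agilent's Feature Extraction (11.0.1.1 in the file headers, 10.7.3.1 in the submitters' processing notes). Per the file headers, background was subtracted to give the processed intensity. The deposited files also hold flags (0 or 1) for spots well above background, saturated or outlying. The authors also deposited a table of log2 values, which equal the log2 intensity minus a constant per array (within 0.01 for 100% of its 22164 non-control probes; column medians -0.52 to -0.49). No label gives its centring.

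Outlying spots were left out, spots of a probe averaged, and each array's 75th percentile subtracted from its log2 values. The filter kept the 23047 of 39429 probes that were well above background on every array of either group. RefSeq accessions named 27427 probes through a gene table of GRCm38.p6. The array was designed on mm9 per the file headers, so coordinates printed are only those of the promoter table. Each gene was read from its passing probe with the highest mean. The comparison used limma 3.58.1 (R 4.3.3, no block, Benjamini-Hochberg over 13716 genes, threshold 0.05). The fit was also run on simulated data with independent noise and no slide effect. That run therefore says nothing about the split of the groups over slides. The number of arrays limits the precision. Every member is named. Values per array are given for Mad2l1, up to 4 members of a layer with the smallest p and the largest rise and fall, and for some further members chosen after their values were seen. The members, lists and tests were chosen with earlier results of these data known. Same-numbered replicates did not deviate together (correlations -0.03, -0.05 and 0.02). Alternatives covered scaling, background, filter, probe choice, slide, replicate number, variance model, array weights, threshold and single arrays.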

Additional observations from a re-analysis of the deposited data

How the results depend on the processing

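The median difference of the 39 members kept its size under each setting, and no gene that rose changed sign in any. Counts moved more. The members' rises numbered 17, and were 9 with no filter on dim probes, 0 with slide as a block and within slide 1, 9 with a replicate block, 33 with array weights (and 1 fall, Cenpb), 6 at an adjusted p under 0.01, and 6 to 29 when 1 array was left out. The 11 further pathway genes became 7 with median centring, 6 with the normexp background, 4 with no filter, 1 with slide as a block, 0 within slide 1, 5 with the replicate block, 20 with array weights, 4 at the stricter threshold, and 3 to 19 with 1 array left out. Over all genes the 1398 rises and 1428 falls were 631 and 862 with no filter, 197 and 467 with slide as a block, 27 and 126 within slide 1, 718 and 920 with the replicate block, 3769 and 3145 with array weights, 443 and 682 at an adjusted p under 0.01, 2168 rises at one under 0.1, and 469 to 2770 rises and 765 to 2394 falls with 1 array left out. Fewer samples were compared within slide 1 and with 1 array left out. Without Rb intact 1 the members' rises were 29 and those of all genes 2770, both above the counts with all arrays. The cause of the changed counts was not tested. Mad2l1 passed with the normexp background (0.33), with array weights (0.19), at an adjusted p under 0.1 (0.27) and in 1 leave-one-out fit (differences 0.19 to 0.32). Sign changes, all of members not past the threshold, were Cenpc1 (0.0214 with normexp, 0.0466 with array weights, -0.0559 to 0.0548 with 1 array left out), Cenpi (-0.11 to 0.32 with 1 array left out), Cenpt (-0.0012 with normexp), Nuf2 (-0.00052 to 0.20 with 1 array left out), Mis12 (-0.10 with normexp, -0.0460 to 0.11 with 1 array left out), Zwint (-0.0520 with normexp), Ska2 (-0.0680 with normexp) and Mad1l1 (0.0561 with normexp, 0.0480 with slide as a block and within slide 1, -0.0489 to 0.0120 with 1 array left out). The replicate numbers pair nothing in the labels, and the replicate block changed counts as given. Naming by accession alone was not run apart, since the files hold accessions and no other gene name, and normexp used the median spot signal. For promoters, the 200-base window gave E2F matches in 11.4% of members against 1.91% of genes, CHR in 48.6% against 19.9% and CCAAT in 60% against 31.9%.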
